A study of Homo sapiens with 12 samples.

Results

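The response to SR11302 was compared between A549 and B2B cells, gene by gene, to find transcripts that moved in opposite directions in the 2 lines. The groups were A549 with 10 µM SR11302 for 72 h, untreated A549, B2B with 10 µM SR11302 for 72 h and untreated B2B, each with 2 libraries, so 8 of the 12 libraries of the series entered the comparison. The remaining 4 libraries, of both lines with the JNK inhibitor SP600125, served to estimate the spread between replicates and for 1 comparison of levels. A549 cells derive from a lung adenocarcinoma, and B2B (BEAS-2B) is a line of immortalized bronchial epithelial cells. Both are labelled as wild type, were kept in the same serum-containing medium and each stands for 1 line of its kind. SR11302 was dissolved in DMSO, and whether untreated cells received the solvent is not settled by the sources used here. Of 16373 genes tested, 255 were members of the set described here, those that rose in one line and fell in the other.

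AP-1 is a family of dimeric transcription factors built from Jun and Fos proteins, which bind the TPA response element, TGA(C/G)TCA. The looser letters TGANTCA were used for the promoter search described below. SR11302 is a synthetic retinoid that interferes with transcription driven by AP-1. In airway epithelium AP-1 is known as a driver of immediate early gene responses to growth factors and stress, and of genes for matrix turnover and wound repair. Immediate early genes are those that cells transcribe within minutes of a signal without new protein synthesis.

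Reads counted in genes ranged from 16782262 to 24917854 in the 8 libraries, and levels are given as CPM, the count of a gene divided by the TMM-scaled depth. Nothing in the labels says that the 2 libraries of a group came from separate cultures, so p-values measure only the spread between these libraries, which may be technical. A549 libraries held the aldo-keto reductase and aldehyde dehydrogenase transcripts known for this line, with a sum of 16510 to 19250 CPM over 5 genes, and 4 surfactant genes of alveolar type II cells and NAPSA summed to 1.51 to 1.95 CPM. In B2B the basal keratin KRT17 stood at 242 to 418 CPM, while KRT5, TP63 and KRT14 were each at 0.192 CPM or less, so that of the basal markers only KRT17 was present. Of 5 epithelial markers B2B held KRT8 (326 to 502 CPM) and KRT18 (212 to 360 CPM), while CDH1, EPCAM and KRT19 were each at 3.91 CPM or less. The mesenchymal markers COL1A1 and SPARC stood at 3031 to 4391 CPM and 2103 to 2447 CPM in B2B. Leukocyte markers were near 0 except the lysosomal gene CD68 (11.3 to 49.8 CPM), and endothelial markers summed to at most 2.59 CPM. Untreated B2B replicate 2 stood apart, since genes of A549 that B2B lacked were found there at a median of 0.661% of their A549 level, against 0.0214% in replicate 1 and 0 and 0.0174% in treated B2B. In untreated A549 replicate 2 the genes of B2B stood at 0.367%, against 0.142% in replicate 1 and 0.173 and 0.149% in treated A549. Reads outside annotated genes made up 14.6 to 20.1% of the SR11302-treated and 23.8 to 25.9% of the untreated libraries. In the SP600125 libraries they made up 15.1 to 17.7%, so the untreated libraries stood apart from those of both drugs. A difference in preparation or sequencing between untreated and treated libraries cannot be told apart from the treatment here.

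To find where the lines differed, the log2 fold change of each gene in B2B was subtracted from that in A549 and the difference was tested. A gene was called at an adjusted p under 0.05 and an absolute value of at least 0.5 on the log2 scale. The difference was called for 2579 genes, 15.8% of those tested, with 1366 (8.34%) higher and 1213 (7.41%) lower in A549 than in B2B. Between SR11302-treated and untreated A549, 4557 genes were called, of which 2423 (14.8%) rose and 2134 (13%) fell. In B2B 3677 genes were called, with 1863 (11.4%) higher and 1814 (11.1%) lower. The most frequent pattern among the called differences was a change in A549 with none called in B2B (1104 genes, 42.8% of them), then a change called in B2B alone (708 genes, 27.5%). In 377 genes the difference was called though neither line by itself met both the adjusted p and the fold minimum. In 135 both lines moved in the same direction by unequal amounts.

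Among genes changed in both lines, 1361 moved in the same direction and 255 (1.56% of all tested) in opposite directions. Of the 255, 173 (1.06%) rose in A549 and fell in B2B, and 82 (0.501%) fell in A549 and rose in B2B. All 255 were called in the test of the difference. The 2 libraries of treated and untreated cells did not overlap, in either line, in 171 of the 173 genes and in 81 of the 82. The same libraries chose these genes, so these counts describe the set and give it no further support. Without any test, such separation in opposite directions was found in 2070 genes, 12.6% of all tested. The median change of the 173 genes was 1.31 in A549 and 0.93 in B2B in absolute log2 terms, and that of the 82 genes was 0.80 and 0.88. The counts rested on single libraries to some degree. The 173 became 263 without treated A549 replicate 1, 103 without treated B2B replicate 2, 115 and 111 without untreated B2B replicate 1 or 2, and 92 without replicate 2 of both untreated groups. The 82 became 46 without untreated A549 replicate 1, 50 without treated B2B replicate 2, 36 and 50 without untreated B2B replicate 1 or 2, and 38 without replicate 2 of both untreated groups. In all 8 fits that left out 1 library, 58 of the 173 and 22 of the 82 remained. No gene of the set was called with both directions swapped in any fit, and a change of sign in 1 line was not counted.

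**Figure D1:**
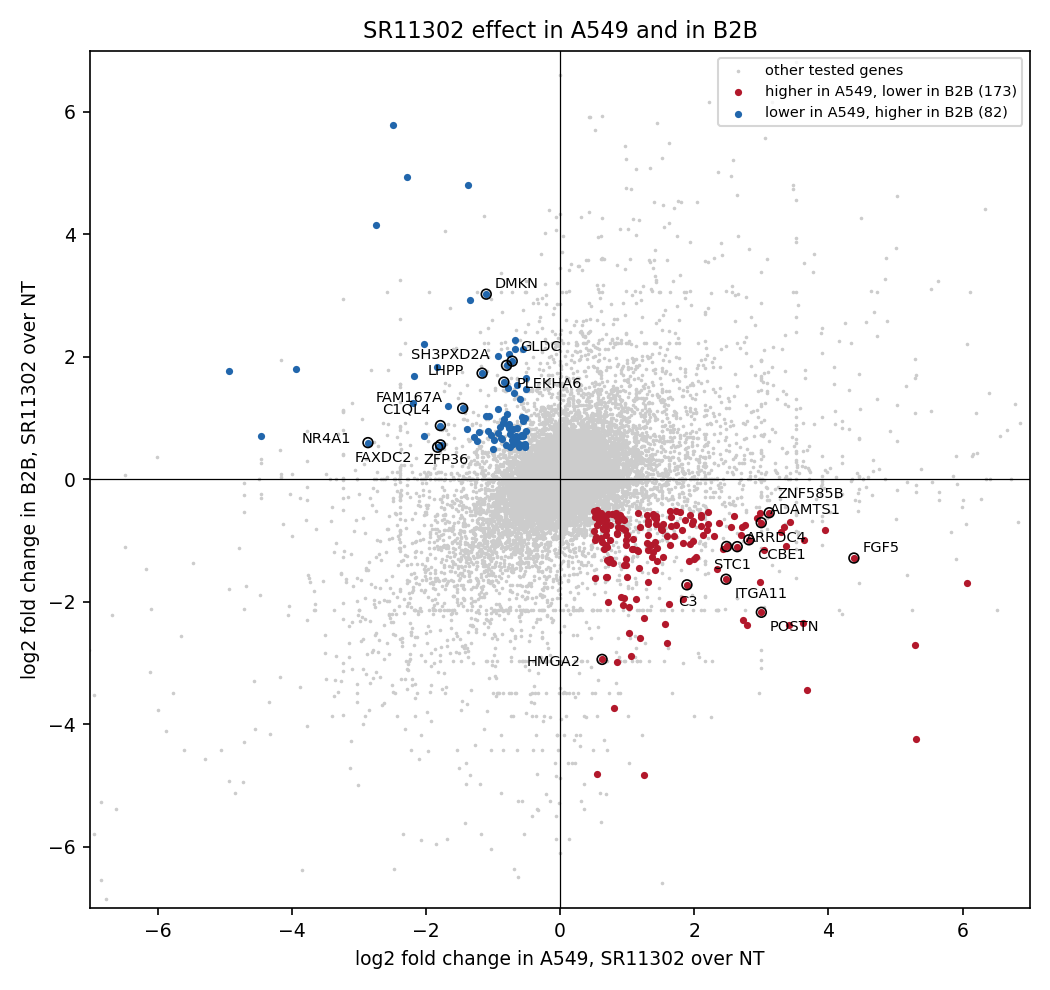
SR11302 effect in A549 (x axis) against that in B2B (y axis), as log2 fold change of SR11302 over untreated cells, with 1 point per tested gene. The 173 genes that rose in A549 and fell in B2B lie at the lower right, the 82 with the reverse pattern at the upper left, circles mark the 20 genes described one by one, and 26 genes outside the axis limits of 7 are not drawn.

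Genes near the fold minimum mark the edge of the set. FRG1HP was inside with 0.50 in A549 and -0.84 in B2B, and RASA1 was outside with 0.50 (0.496 before rounding) and -0.64. On the other side WDR34 was inside with -0.50 in A549 and 0.79 in B2B, and ABTB1 was outside with -0.50 (-0.497 before rounding) and 0.55. Levels of at least 10 CPM in the highest group and 2 CPM in each line, with replicates within 3-fold, were met by 104 of the 173 genes and 53 of the 82. The other 69 and 29 were called on fewer reads or on replicates that spread more.

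Several of the 10 genes with the largest differences among those that rose in A549 and fell in B2B encode secreted or matrix proteins. FGF5, a fibroblast growth factor, reached 1.75 and 2.97 CPM in treated A549, against 0 and 0.212 CPM in untreated A549, and 29.8 and 20.5 CPM in treated B2B, against 62.6 and 60.4 CPM in untreated B2B. The treated libraries were above the untreated ones in A549 and below them in B2B, and the difference between the lines was 5.67 ± 0.63 (log2 ± SE, adjusted p = 5.15e-05). POSTN encodes periostin, a matricellular protein, and stood at 2.33 and 4.60 CPM in treated A549, against 0 and 0.850 CPM in untreated A549. In B2B it had 87.7 and 63.4 CPM with SR11302, against 343 and 340 CPM without, and the difference was 5.17 ± 0.60. Both genes remained far lower in A549 than in B2B. Their treated A549 levels were 9.40% and 4.59% of the treated B2B levels, above the median of 0.173% and 0.149% at which B2B genes were found in those libraries. Their untreated A549 levels were 0.173% and 0.124% of the untreated B2B levels. In untreated A549 replicates 1 and 2, B2B genes were found at a median of 0.142% and 0.367%. The untreated A549 values thus lay near the floor, and the size of both differences is uncertain. FGF5 lies on chromosome 4 (80266639 to 80336680) and POSTN on chromosome 13 (37562583 to 37598844) of GRCh38, as annotated in GENCODE v44, and the counts sum over the exons of each gene. In bulk RNA, a change in the number of cells that hold a transcript and a change in its amount per cell cannot be told apart.

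The collagen-binding integrin subunit ITGA11 had 2.33 and 5.48 CPM in treated A549, against 0.889 and 0.531 CPM in untreated A549, and 3.86 and 3.10 CPM in treated B2B, against 11.3 and 10.5 CPM in untreated B2B. After treatment its level in A549 was 112% of that in B2B, against 6.52% without treatment. CCBE1, a secreted protein required for lymphatic vessel growth, had 15.1 and 12.8 CPM in treated A549, against 1.28 and 2.65 CPM in untreated A549, and 197 and 176 CPM in treated B2B, against 375 and 368 CPM in untreated B2B. ADAMTS1, a secreted protease of proteoglycans, had 9.13 and 8.33 CPM in treated A549, against 0.834 and 1.33 CPM in untreated A549. In B2B it had 70.1 and 63.0 CPM with SR11302, against 108 and 110 CPM without. The differences between the lines were 4.11 ± 0.52 for ITGA11, 3.80 ± 0.35 for CCBE1 and 3.71 ± 0.31 for ADAMTS1, with adjusted p from 4.73e-06 to 0.000139.

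Other members started higher in A549. Complement component C3 had 111 and 135 CPM in treated A549, against 33.9 and 32.4 CPM in untreated A549, and 3.29 and 1.97 CPM in treated B2B, against 9.0 and 8.83 CPM in untreated B2B (difference 3.61 ± 0.25). HMGA2, an architectural chromatin protein, had 60.3 and 79.0 CPM in treated A549, against 42.1 and 48.2 CPM in untreated A549, and 1.19 and 1.97 CPM in treated B2B, against 12.2 and 11.6 CPM in untreated B2B (difference 3.57 ± 0.27). The gap in C3 and HMGA2 between the lines therefore widened with SR11302, with A549 levels at 4670% and 4400% of those in B2B, against 372% and 381% without treatment. STC1, the secreted glycoprotein stanniocalcin, had 23.1 and 32.8 CPM in treated A549, against 5.78 and 4.25 CPM in untreated A549, and 6.09 and 4.23 CPM in treated B2B, against 11.7 and 10.7 CPM in untreated B2B (difference 3.58 ± 0.30). STC1 was lower in A549 than in B2B without treatment and higher with SR11302.

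ARRDC4, an arrestin-domain protein, had 6.75 and 14.5 CPM in treated A549, against 1.39 and 2.02 CPM in untreated A549, and 13.2 and 9.35 CPM in treated B2B, against 25.1 and 23.7 CPM in untreated B2B (difference 3.74 ± 0.43). ZNF585B, a zinc finger gene, had 4.61 and 6.74 CPM in treated A549, against 0.723 and 0.584 CPM in untreated A549, and 16.9 and 17.2 CPM in treated B2B, against 26.1 and 23.7 CPM in untreated B2B (difference 3.66 ± 0.33). Its neighbouring close copy ZNF585A differed by 4.56 ± 0.39 and rose in A549 (4.02) but was not called in B2B (-0.54), and reads shared by such copies make either value uncertain. Of the 10 genes, HMGA2 lost its call in A549 without treated A549 replicate 2 (0.44) or untreated A549 replicate 1 (0.54). ADAMTS1 and ARRDC4 lost theirs in B2B without treated B2B replicate 2 (-0.63 and -0.88), and ZNF585B did so without any 1 of the 4 B2B libraries (-0.47 to -0.62). The other 6 kept both calls in each of the 8 fits, but POSTN was not called in B2B by DESeq2 (-2.19), and ZNF585B was not when scaled by library size alone (-0.47).

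**Figure D2:**
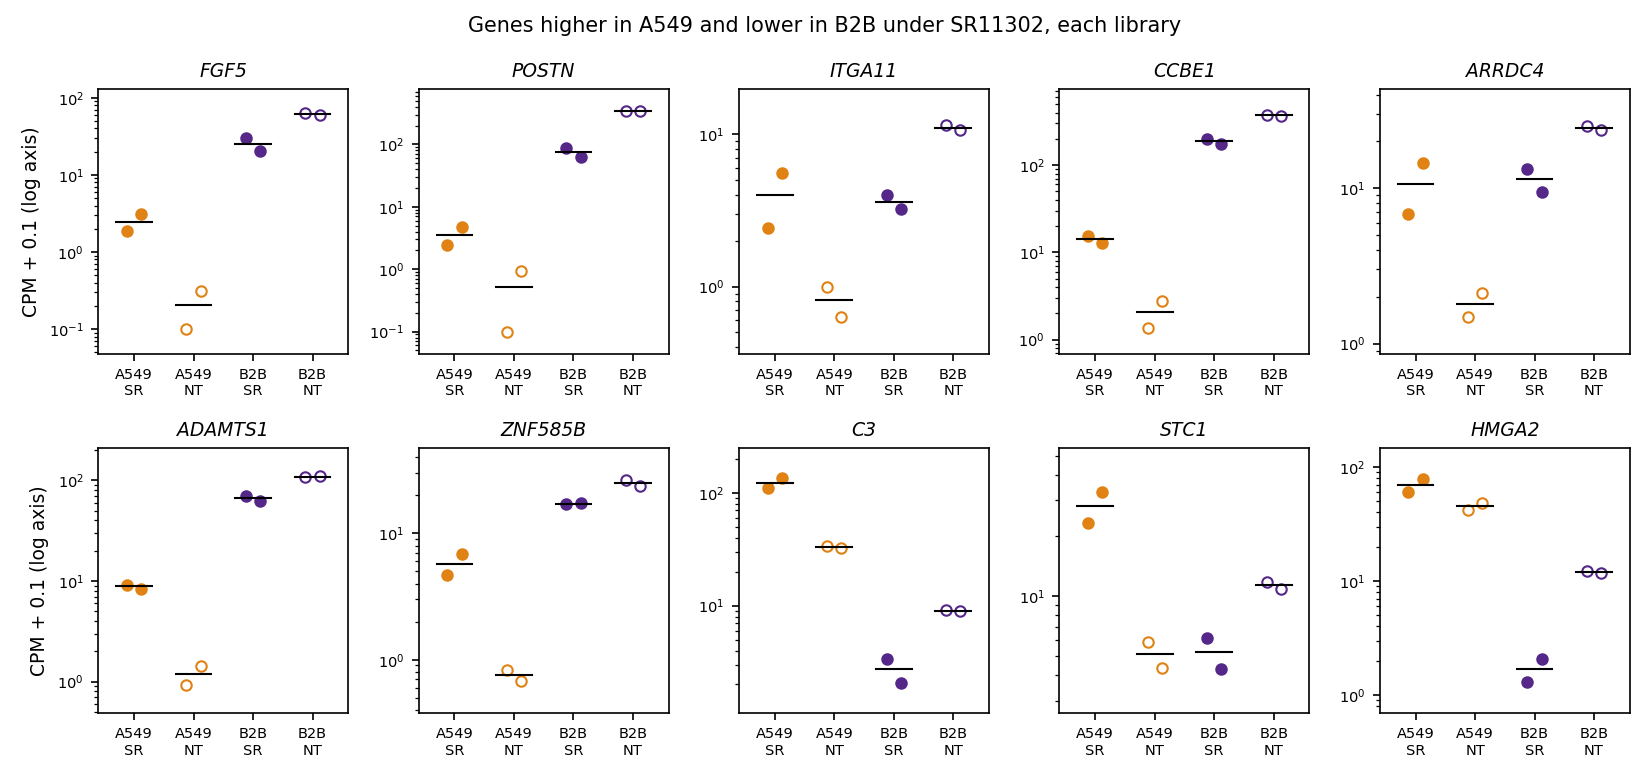
Levels of the 10 named genes that rose in A549 and fell in B2B, as CPM (TMM-scaled, 0.1 added) on a logarithmic scale, for SR11302-treated (SR, filled) and untreated (NT, open) libraries of A549 (orange) and B2B (purple), with a bar at the mean of the 2 libraries. In each panel the treated A549 points lie above the untreated ones and the treated B2B points below, for instance 1.75 and 2.97 CPM against 0 and 0.212 CPM of FGF5 in A549.

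Genes that fell in A549 and rose in B2B included a secreted epithelial protein, an orphan nuclear receptor and metabolic enzymes. DMKN encodes dermokine, which is secreted by stratified epithelia. It had 10.6 and 10.2 CPM in treated A549, against 22.8 and 21.7 CPM in untreated A549, and 5.96 and 7.44 CPM in treated B2B, against 0.718 and 0.896 CPM in untreated B2B (difference -4.12 ± 0.28, adjusted p = 1.38e-06). NR4A1, an orphan nuclear receptor of the immediate early class, had 42.9 and 48.9 CPM in treated A549, against 360 and 308 CPM in untreated A549, and 10.3 and 11.4 CPM in treated B2B, against 6.13 and 8.10 CPM in untreated B2B (difference -3.46 ± 0.22, adjusted p = 8.12e-07). DMKN lies on chromosome 19 (35497220 to 35513658) and NR4A1 on chromosome 12 (52022832 to 52059507). For DMKN the larger change was in B2B (3.02 there and -1.10 in A549), for NR4A1 in A549 (-2.86 there and 0.60 in B2B). LHPP, a phosphohistidine phosphatase, had 6.31 and 6.02 CPM in treated A549, against 14.3 and 13.3 CPM in untreated A549, and 5.76 and 4.90 CPM in treated B2B, against 1.58 and 1.63 CPM in untreated B2B (difference -2.90 ± 0.29). Of the exon bases of LHPP, 19.9% are shared with a gene on the other strand, so part of its reads may belong to that gene.

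The glycine cleavage enzyme GLDC had 33.4 and 27.8 CPM in treated A549, against 49.0 and 51.2 CPM in untreated A549, and 8.80 and 10.8 CPM in treated B2B, against 2.49 and 2.61 CPM in untreated B2B (difference -2.64 ± 0.22). SH3PXD2A, a scaffold of the invasive cell protrusions called podosomes, had 9.86 and 19.2 CPM in treated A549, against 27.1 and 23.6 CPM in untreated A549. In B2B SH3PXD2A had 6.25 and 8.56 CPM with SR11302, against 1.82 and 2.20 CPM without (difference -2.66 ± 0.41). The secreted C1q-like protein C1QL4 had 3.88 and 2.80 CPM in treated A549, against 13.5 and 9.50 CPM in untreated A549, and 5.22 and 5.63 CPM in treated B2B, against 2.87 and 3.01 CPM in untreated B2B (difference -2.66 ± 0.34). In both lines and for all 3 genes the treated and untreated libraries lay apart.

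ZFP36 encodes tristetraprolin, which brings about decay of cytokine mRNAs. It had 45.4 and 52.2 CPM in treated A549, against 174 and 162 CPM in untreated A549, and 27.9 and 26.8 CPM in treated B2B, against 18.2 and 18.9 CPM in untreated B2B (difference -2.34 ± 0.16). FAM167A had 10.6 and 10.7 CPM in treated A549, against 29.8 and 28.4 CPM in untreated A549, and 11.7 and 8.45 CPM in treated B2B, against 5.08 and 4.03 CPM in untreated B2B (difference -2.61 ± 0.27). FAXDC2, of the fatty acid hydroxylase family, had 1.17 and 1.80 CPM in treated A549, against 5.50 and 5.15 CPM in untreated A549, and 11.4 and 12.0 CPM in treated B2B, against 8.86 and 7.45 CPM in untreated B2B (difference -2.35 ± 0.28). PLEKHA6, a pleckstrin homology domain protein, had 78.5 and 72.8 CPM in treated A549, against 137 and 133 CPM in untreated A549, and 4.11 and 6.03 CPM in treated B2B, against 1.01 and 2.24 CPM in untreated B2B (difference -2.43 ± 0.32). The higher of its untreated B2B values was in replicate 2, the library that held A549 transcripts at a median of 0.661%, and the part this played in the PLEKHA6 value was not tested. Of the 10 genes, SH3PXD2A lost its call in A549 without replicate 1 of treated (-0.40) or untreated A549 (-0.69). In B2B calls were lost by NR4A1 without treated replicate 2 (0.53) or untreated replicate 1 (0.42), by C1QL4 without treated replicate 2 (0.83) or either untreated replicate (0.85 and 0.91), and by FAXDC2 without any 1 of the 4 libraries (0.40 to 0.65). The other 6 kept both calls in each of the 8 fits. FAXDC2 was also not called in B2B by DESeq2, in the fit to the 8 libraries alone or with an offset for GC content (0.46), nor was ZFP36 with that offset (0.45), and SH3PXD2A was not called in A549 in the fit to the 8 libraries alone (-0.76) or when scaled by library size alone (-0.67).

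**Figure D3:**
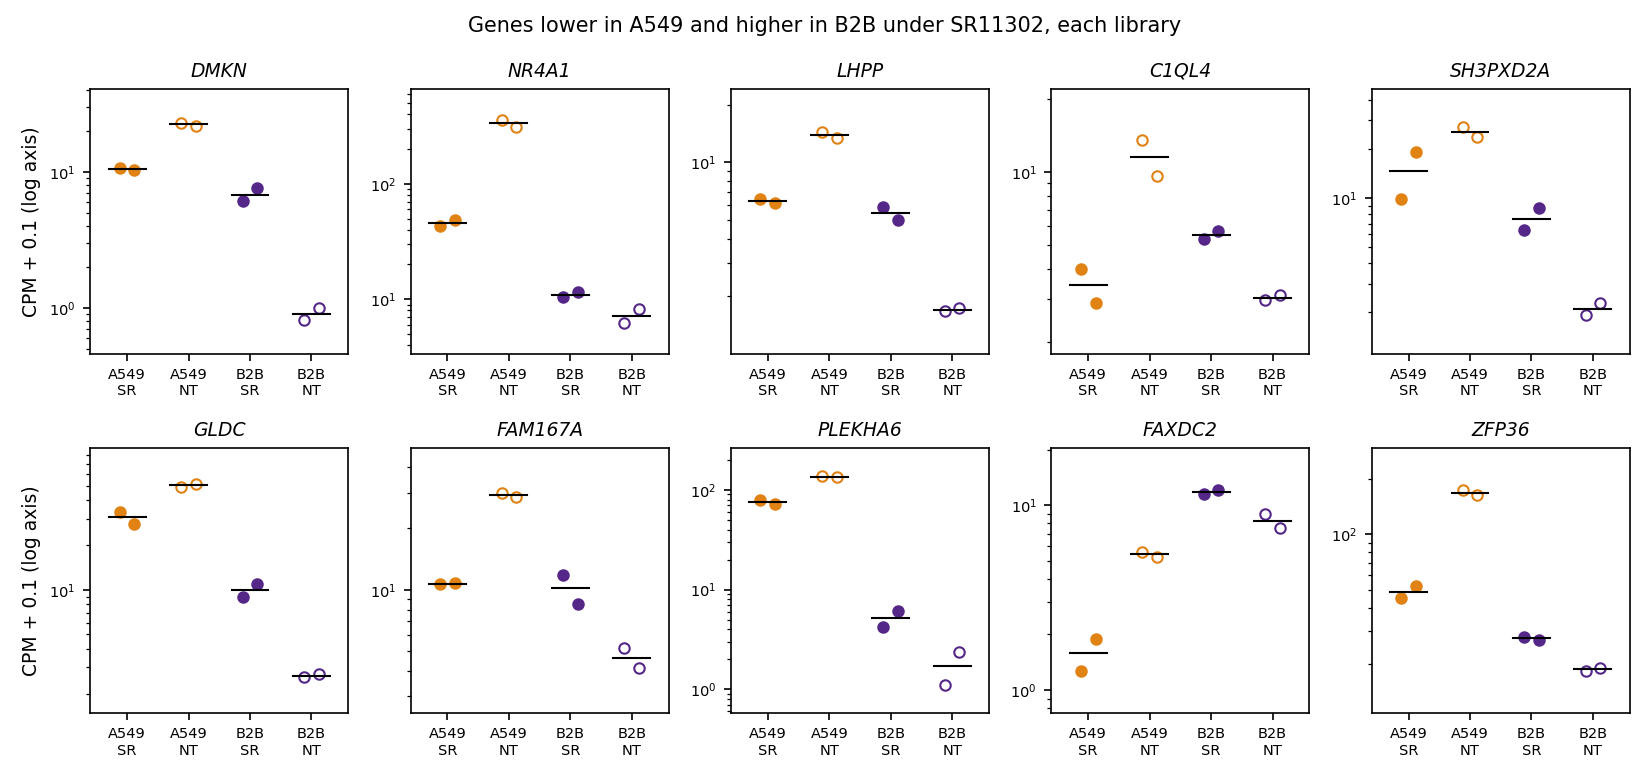
Levels of the 10 named genes that fell in A549 and rose in B2B, as CPM (TMM-scaled, 0.1 added) on a logarithmic scale, for SR11302-treated (SR, filled) and untreated (NT, open) libraries of A549 (orange) and B2B (purple), with a bar at the mean of the 2 libraries. In each panel the treated A549 points lie below the untreated ones and the treated B2B points above, for instance 42.9 and 48.9 CPM against 360 and 308 CPM of NR4A1 in A549.

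The AP-1 subunit genes, whose products SR11302 is meant to block, were compared next. The difference was lower in A549 for 5 of the 7 and not called for JUN and FOSL2. JUND, a broadly expressed Jun protein, was the 1 subunit that moved in opposite directions. It had 94.1 and 81.5 CPM in treated A549, against 154 and 141 CPM in untreated A549, and 136 and 147 CPM in treated B2B, against 89.1 and 107 CPM in untreated B2B (difference -1.28 ± 0.17, adjusted p = 0.000208). The rise of JUND in B2B was not called without treated B2B replicate 2 (0.48) or untreated B2B replicate 1 (0.41), and with an offset for GC content its A549 value was under the fold minimum (-0.33), so that JUND then had no opposite directions. FOSB had the largest difference of the 7 at -3.66 ± 0.28, yet it fell in both lines, with 8.16 and 11.2 CPM in treated A549, against 255 and 280 CPM in untreated A549, and 1.64 and 1.80 CPM in treated B2B, against 3.35 and 4.11 CPM in untreated B2B. FOS fell to 50.8 and 83.9 CPM in treated A549, against 323 and 311 CPM in untreated A549. Its B2B values were 13.1 and 11.7 CPM with SR11302 and 7.85 and 8.92 CPM without, which did not pass the test (0.57 ± 0.24), and the difference of FOS was -2.80 ± 0.31. JUNB differed by -1.32 ± 0.21, with -0.97 ± 0.14 in A549 and an uncalled 0.35 ± 0.16 in B2B. FOSL1 differed by -1.26 ± 0.35 with an adjusted p of 0.0262, its treated A549 libraries were far apart at 67.1 and 29.8 CPM, and its call was lost in the fit to the 8 libraries alone (adjusted p = 0.0788) and without treated B2B replicate 2 or any 1 of the 4 untreated libraries (adjusted p = 0.0512 to 0.091). JUN differed by -0.15 ± 0.17 and FOSL2 by -0.19 ± 0.14. JUN fell in A549 (-0.61 ± 0.12) and stood at -0.45 ± 0.12 in B2B, under the fold minimum, and its difference was 0.03 with an offset for GC content.

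Immediate early genes were lower in A549 in most cases. Of 20 tested, 13 were lower in the difference and 1 higher, against 7.41% and 8.34% of all genes, and their median difference was -1.48, against 0.003 over all tested genes. In A549 15 of the 20 fell and 1 rose, against 13% and 14.8% of all tested genes. In B2B 3 fell and 3 rose, namely NR4A1, NR4A3 and ZFP36, and these made up the members with opposite directions. Over all tested genes 11.1% fell and 11.4% rose in B2B. NR4A3, a relative of NR4A1, had 4.56 and 4.64 CPM in treated A549, against 9.06 and 9.72 CPM in untreated A549, and 3.17 and 1.97 CPM in treated B2B, against 1.44 and 1.71 CPM in untreated B2B. Its rise in B2B was not called without treated B2B replicate 1 or any 1 of the 4 untreated libraries, nor with DESeq2, in the fit to the 8 libraries alone or with the replicate number as a block. The B2B value of ZFP36 was under the fold minimum with the GC offset (0.45). KLF2, a zinc finger factor, fell in both lines but by more in A549 (-3.42 ± 0.21) than in B2B (-0.69 ± 0.18). EGR1 fell to 87.6 ± 22.4 CPM in treated A549, against 498 ± 26.0 CPM in untreated A549, and stood at 285 ± 15.4 CPM in treated and 262 ± 0.782 CPM in untreated B2B (SD, n = 2 each), a difference of -2.62 ± 0.23.

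**Figure D4:**
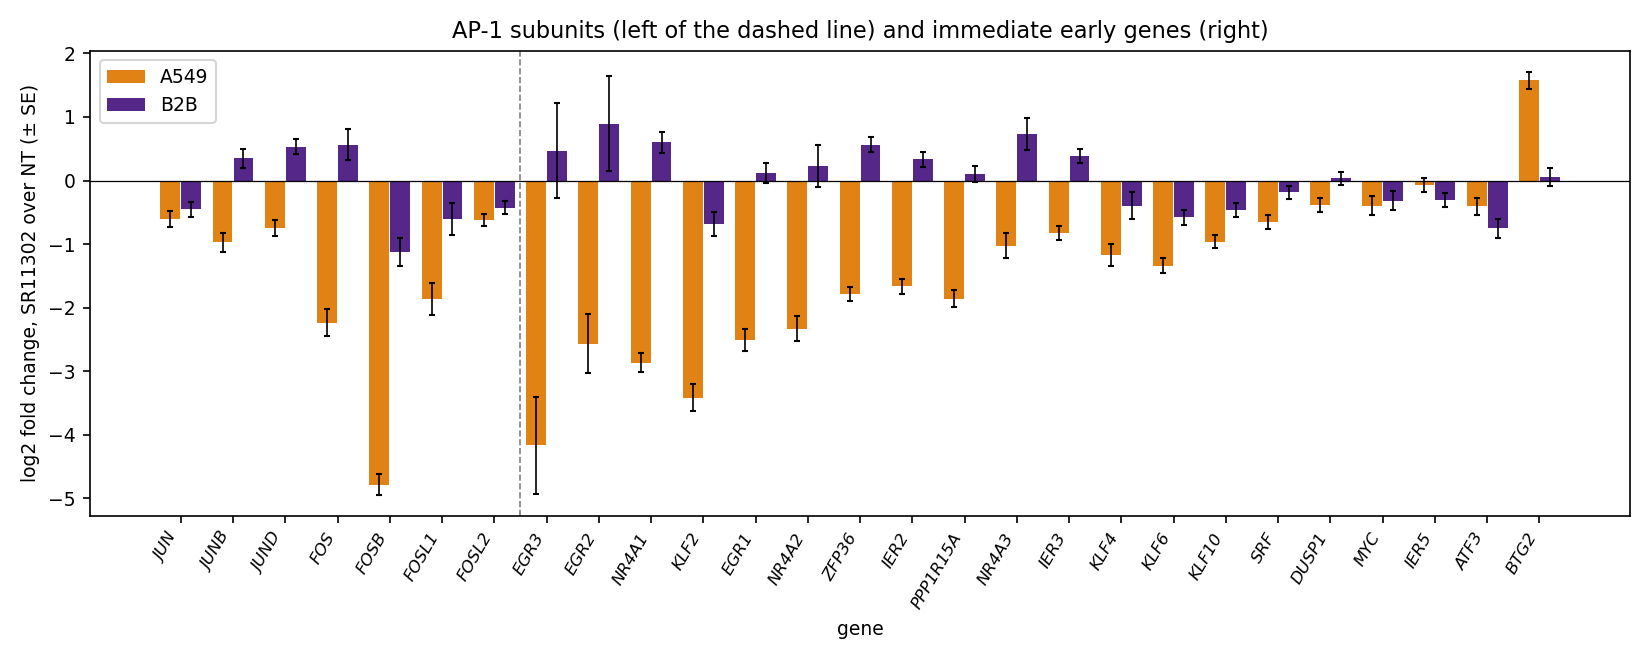
Effect of SR11302 on the 7 AP-1 subunit genes and 20 immediate early genes (x axis), as log2 fold change over untreated cells with its SE (y axis), in A549 (orange) and B2B (purple). Most bars point down in A549, to -4.78 for FOSB, while in B2B the bars of NR4A1 (0.60), ZFP36 (0.56) and JUND (0.53) point up.

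Promoter sequences were searched for AP-1 sites because SR11302 is directed at AP-1. In windows from 250 bases before to 50 after each RefSeq start (GRCh38.p14), the letters TGANTCA, which read the same on both strands, were found in 15 of 201 windows (7.46%) of the 134 matched genes that rose in A549 and fell in B2B. They were found in 9 of 88 windows (10.2%) of the 61 matched genes with the reverse pattern, against 994 of 17895 windows (5.55%) of all tested genes and 7.71% of all 35116 windows. The CRE letters TGACGTCA, also the same on both strands and not matched by TGANTCA, were in 2.99%, 2.27%, 2.65% and 1.85% of these windows. TGANTCA also admits A or T as its middle base, as in TGATTCA of ANKRD1 and TGAATCA of TFPI2. Its shares are therefore not those of the TPA response element alone. Of the 20 genes described one by one and JUND, those with either motif were DMKN, in the windows of 2 start sites, POSTN, ARRDC4 and JUND. Their stretches are shown to place the sites next to the changes given above, 5′ to 3′ on the strand of the gene, with the motif in capitals.
DMKN, chr19:35513694-35513781, minus strand, motif starting 92 bases before the start: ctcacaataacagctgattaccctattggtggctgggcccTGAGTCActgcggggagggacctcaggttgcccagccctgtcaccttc
DMKN, chr19:35501933-35502020, minus strand, motif starting 69 bases before the start: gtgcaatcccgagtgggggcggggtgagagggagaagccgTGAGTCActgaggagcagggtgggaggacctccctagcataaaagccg
POSTN, chr13:37598941-37599018, minus strand, motif starting 220 bases before the start: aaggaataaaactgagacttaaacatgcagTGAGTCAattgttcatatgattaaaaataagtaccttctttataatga
ARRDC4, chr15:97960544-97960631, plus strand, motif starting 119 bases before the start: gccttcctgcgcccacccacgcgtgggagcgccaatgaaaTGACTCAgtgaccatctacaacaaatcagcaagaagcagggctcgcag
JUND, chr19:18281775-18281862, minus strand, motif starting 200 bases before the start: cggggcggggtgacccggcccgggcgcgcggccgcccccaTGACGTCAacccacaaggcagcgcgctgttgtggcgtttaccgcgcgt
DMKN and JUND fell in A549 and rose in B2B, and POSTN and ARRDC4 did the reverse, so genes of both directions held these letters.

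The wider bZIP family, some of whose members form dimers with Fos or Jun, had 2 of 27 genes higher and 3 lower in the difference, against 8.34% and 7.41% of all genes. These counts were 4 and 5 without treated A549 replicate 1 and 2 and 5 without treated B2B replicate 1. The ER-bound factor CREB3L2 moved in opposite directions (0.84 ± 0.11 in A549 and -0.60 ± 0.11 in B2B), and the small MAF protein MAFF fell in A549 (-1.96 ± 0.23) and was not called in B2B (-0.19 ± 0.21). Among 21 AP-1 responsive genes 5 were higher and 3 lower. The 5 became 8 without treated A549 replicate 2, 3 without untreated A549 replicate 1 or untreated B2B replicate 2, and 2, with 2 lower, without replicate 2 of both untreated groups. The EGF receptor ligand AREG fell in A549 (-1.99 ± 0.14) and was not called in B2B (-0.57 ± 0.25). MAPK feedback genes were lower in 7 of 20 and higher in 3, or in 5 without treated A549 replicate 1 and in 1 without replicate 2 of both untreated groups. Examples, with the difference between the lines, are IER3 (-1.20 ± 0.16) and the phosphatase DUSP8 (-1.61 ± 0.23), which fell in A549, and the ETS factor ETV4 (-1.28 ± 0.27), which rose in B2B.

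Matrix and adhesion genes were the longest list examined and held 9 genes with opposite directions. Of 52 tested, 23 were higher and 5 lower in the difference, against 8.34% and 7.41% of all tested genes, and the median difference was 0.75. In A549 21 rose and 3 fell, and in B2B 7 rose and 17 fell. Over all tested genes 14.8% rose and 13% fell in A549, 11.4% rose and 11.1% fell in B2B, and 1.56% had opposite directions. The same shares stand beside the list counts that follow. POSTN, COL4A1, COL6A2, COL5A1, FN1, ITGB3, COL6A1 and COL4A2 rose in A549 and fell in B2B, and the laminin-binding integrin subunit ITGB4 did the reverse. COL5A1, ITGB3, COL6A1, COL4A2 and ITGB4 were named after their values were seen. The basement membrane collagen COL4A1 stood at 221 ± 33.7 CPM in treated A549, against 114 ± 7.32 CPM in untreated A549, and at 230 ± 19.2 CPM in treated B2B, against 879 ± 12.8 CPM in untreated B2B (difference 2.88 ± 0.18). Its partner chain COL4A2 rose by 0.68 in A549 and fell by 1.07 in B2B on the log2 scale. The microfibrillar collagens COL6A1 and COL6A2 differed by 1.98 ± 0.18 and 2.78 ± 0.23, the fibrillar collagen COL5A1 by 2.73 ± 0.15 and the fibronectin and vitronectin receptor subunit ITGB3 by 2.31 ± 0.28. FN1, fibronectin itself, stood at 884 ± 370 CPM in treated A549, against 355 ± 51.5 CPM in untreated A549, and at 6141 ± 301 CPM in treated B2B, against 13700 ± 122 CPM in untreated B2B. ITGB4 had 219 and 220 CPM in treated A549, against 398 and 356 CPM in untreated A549, and 87.7 and 102 CPM in treated B2B, against 50.0 and 52.9 CPM in untreated B2B. Without treated A549 replicate 1 the A549 value of COL4A2 fell just short of the fold minimum (0.497), and without treated or untreated B2B replicate 2 so did the B2B value of ITGB3 (-0.45 and -0.49), while the other 7 kept both calls in each of the 8 fits. SDC2, a heparan sulfate proteoglycan, had a larger difference (4.60 ± 0.23) but was called in A549 alone, with 20.3 ± 3.31 CPM in treated and 0.923 ± 0.047 CPM in untreated A549.

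Mesenchymal genes and genes of the TGF-beta pathway shared members with this list. Of 21 mesenchymal genes 9 were higher and 1 lower (median difference 0.43), against 8.34% and 7.41% of all tested genes. FN1, SNAI2 and ACTA2 had opposite directions. SNAI2, a repressor of epithelial genes, had 0.777 and 1.00 CPM in treated A549, against 0 and 0.212 CPM in untreated A549, and 6.99 and 5.52 CPM in treated B2B, against 19.8 and 20.4 CPM in untreated B2B. Its level in A549 is low, and the size of its rise is accordingly uncertain. Smooth muscle actin ACTA2 had 9.08 and 8.91 CPM in treated A549, against 3.39 and 3.40 CPM in untreated A549, and 2.47 and 2.20 CPM in treated B2B, against 3.40 and 3.79 CPM in untreated B2B. The fall of ACTA2 in B2B was not called without any 1 of the 4 B2B libraries (-0.53 to -0.71). The neural cadherin CDH2 rose in A549 (2.58 ± 0.15) and stood at -0.35 ± 0.13 in B2B, and the gelatinase MMP2 rose in both lines but by 3.49 ± 0.31 more in A549. Of 27 TGF-beta and BMP genes 11 were higher and 1 lower (median difference 0.62), against the same 8.34% and 7.41%. The ligand TGFB2 had 103 ± 13.9 CPM in treated A549, against 52.4 ± 7.72 CPM in untreated A549, and 125 ± 19.4 CPM in treated B2B, against 264 ± 0.432 CPM in untreated B2B, though 22.7% of its exon bases are shared with another annotated transcript of the same strand. LTBP2, which binds latent TGF-beta and fibrillin, moved by 1.31 ± 0.14 in A549 and -0.73 ± 0.13 in B2B. The activin subunit INHBA had 1.94 and 3.18 CPM in treated A549, against 0.778 and 0.956 CPM in untreated A549, and 0.781 and 0.676 CPM in treated B2B, against 3.45 and 4.11 CPM in untreated B2B.

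YAP targets were higher in 6 of 21 cases and lower in 3, against 8.34% and 7.41% of all tested genes. Of the 21, ANKRD1, RBMS3 and TGFB2 had opposite directions. ANKRD1, a nuclear ankyrin repeat protein and common YAP readout, stood at 84.8 ± 8.98 CPM in treated A549, against 23.8 ± 0.499 CPM in untreated A549, and at 7.81 ± 0.0554 CPM in treated B2B, against 16.1 ± 1.61 CPM in untreated B2B. RBMS3, an RNA-binding protein, lost its call in B2B without treated B2B replicate 2 (-0.86). The sum of 5 epithelial markers, mainly KRT8 and KRT18, was 6413 and 5379 CPM in treated A549, against 13400 and 11650 CPM in untreated A549, and 543 and 633 CPM in treated B2B, against 781 and 870 CPM in untreated B2B, so this keratin-led sum was lower with SR11302 in both lines. CDH1 went the other way in B2B, at 2.02 and 2.31 CPM in treated against 0.575 and 1.79 CPM in untreated cells. The sum of 5 mesenchymal markers, mainly VIM in A549, was 1307 and 1172 CPM in treated A549, against 962 and 893 CPM in untreated A549, and 7136 and 7171 CPM in treated B2B, against 8562 and 8776 CPM in untreated B2B. In B2B the fall was mainly in COL1A1, at 3031 and 3267 CPM in treated against 4296 and 4391 CPM in untreated cells. VIM there stood at 1518 and 1539 CPM in treated and 1526 and 1581 CPM in untreated cells. The part of these sums in the list results was not tested. Epithelial genes as a list tended to be lower in A549, with 8 of 24 lower and 2 higher (median difference -0.46), though 3 were lower without untreated A549 replicate 1, 4 without untreated B2B replicate 1 and 5 without treated A549 replicate 2, and the median was 0.06 without treated A549 replicate 1 and 0.20 without treated B2B replicate 1. The desmosomal plaque protein PKP3 had 79.3 ± 14.6 CPM in treated A549, against 138 ± 13.2 CPM in untreated A549, and 35.6 ± 1.79 CPM in treated B2B, against 24.1 ± 1.13 CPM in untreated B2B, though its rise in B2B was not called without untreated B2B replicate 1 (0.52) and its A549 value was just under the fold minimum with the GC offset (-0.49).

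**Figure D5:**
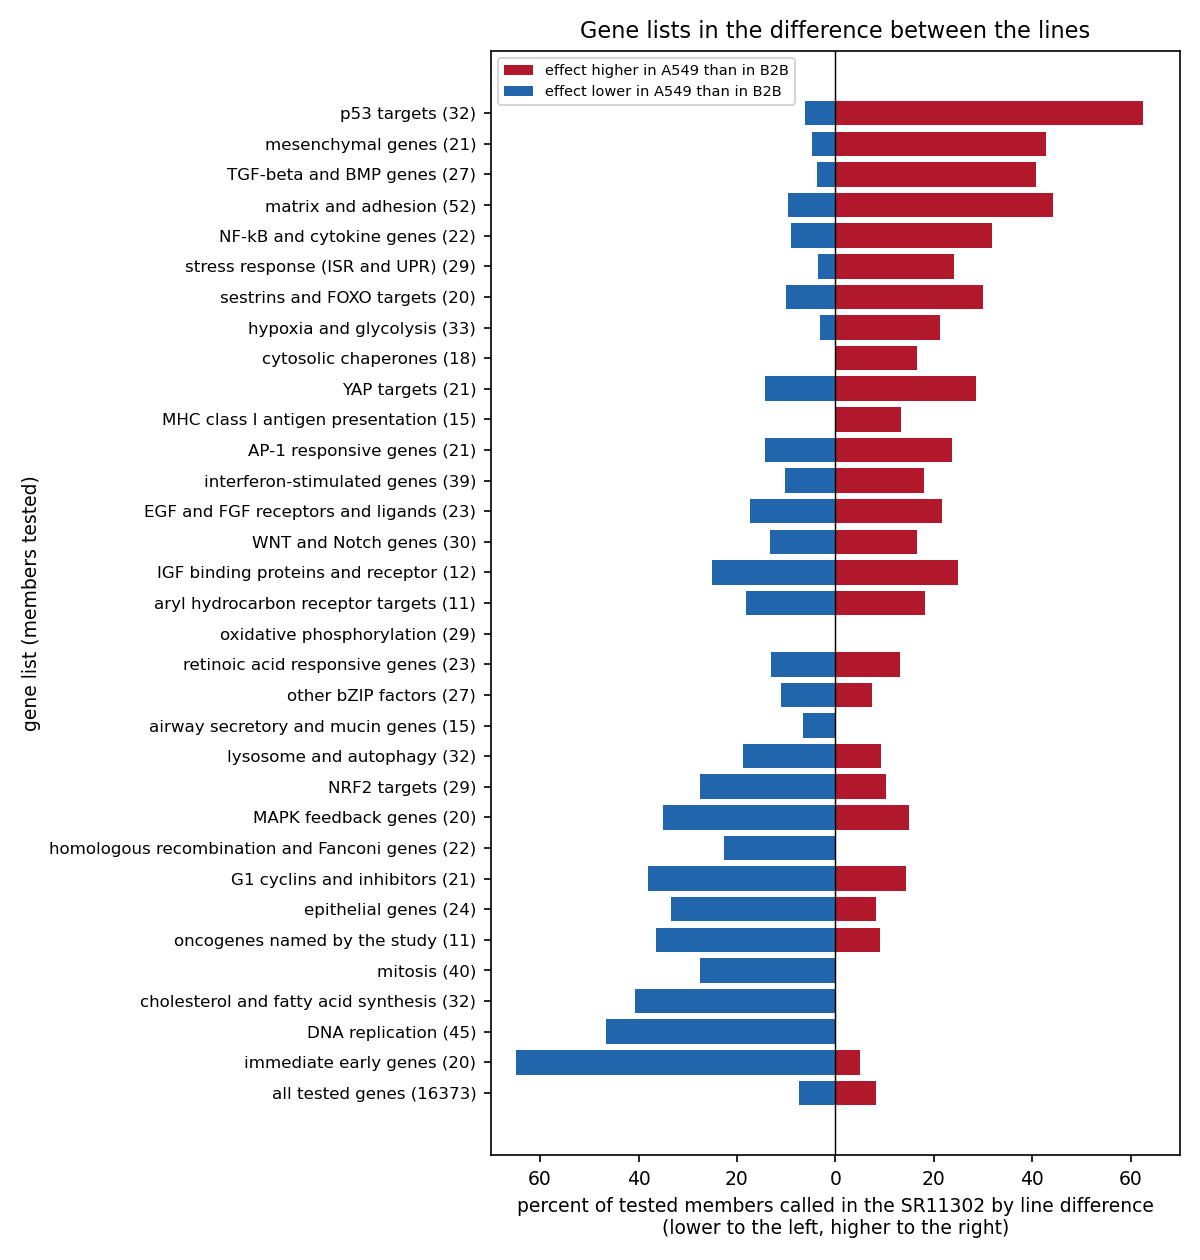
Share of tested members of the gene lists (y axis, members tested in parentheses) called in the difference between the lines, in percent (x axis), with lower in A549 than in B2B to the left and higher to the right. The 7 AP-1 subunits (5 lower) are not drawn, and of the lists drawn, immediate early genes (13 of 20 lower) and DNA replication genes (21 of 45 lower) reach farthest to the left, p53 targets (20 of 32 higher) farthest to the right, and the bars for all 16373 tested genes stand at the bottom at 7.41% and 8.34%.

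Targets of the tumor suppressor p53 were higher in the difference in 20 of 32 cases and lower in 2, with a median of 0.91. Over all tested genes 8.34% were higher and 7.41% lower. In A549 25 rose, against 14.8% of all tested genes, while in B2B 2 rose and 2 fell, against 11.4% and 11.1%. MDM2, the ubiquitin ligase that restrains p53, moved in opposite directions, with 319 and 479 CPM in treated A549, against 204 and 239 CPM in untreated A549, and 150 and 118 CPM in treated B2B, against 255 and 243 CPM in untreated B2B (difference 1.74 ± 0.23). The stress cytokine GDF15 did so at 153 and 136 CPM in treated A549, against 85.8 and 79.1 CPM in untreated A549, and 2.47 and 2.31 CPM in treated B2B, against 3.07 and 3.99 CPM in untreated B2B. The fall of GDF15 in B2B was not called without either treated B2B library (-0.62 and -0.52) or without untreated B2B replicate 2 (-0.35). CDKN1A, which encodes the cell cycle inhibitor p21, differed by 1.94 ± 0.15, with 1.60 ± 0.11 in A549 and an uncalled -0.34 ± 0.10 in B2B. SPATA18, TP53INP1 and the sestrin SESN1 also rose in A549 and were not called in B2B, with differences of 2.86 ± 0.37, 2.40 ± 0.42 and 1.89 ± 0.21.

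Cell cycle genes differed in the other direction, mostly without opposite calls. Against 7.41% of all tested genes, 21 of 45 DNA replication genes were lower (median -0.55), as were 11 of 40 mitotic genes (median -0.48). None was called higher by edgeR or DESeq2 or had an unadjusted p under 0.05 on that side. In A549 21 replication genes fell, against 13% of all tested genes, while in B2B 4 fell and 3 rose, against 11.1% and 11.4%. The helicase subunits MCM5 and MCM2 differed by -1.05 ± 0.20 and -1.03 ± 0.18, with -0.76 and -0.58 in A549 and uncalled values of 0.29 and 0.45 in B2B. These counts moved strongly with single libraries. The replication count was 34 without treated A549 replicate 1, 13 without treated B2B replicate 2, 12 without untreated A549 replicate 1, 11 and 12 without untreated B2B replicate 1 or 2, and 8 without replicate 2 of both untreated groups. The mitotic count was 25 without treated A549 replicate 1 and between 2 and 6 without any of the others except treated A549 replicate 2, and 28 with an offset for GC content. Among 21 G1 cyclins and inhibitors 3 were higher and 8 lower (median -0.47), against 8.34% and 7.41% of all tested genes. The lower ones included CDKN2D (-1.27 ± 0.21) and E2F2 (-1.02 ± 0.19). CDK6, the D-cyclin partner kinase, was among the higher ones and moved in opposite directions. It stood at 391 ± 74.8 CPM in treated A549, against 268 ± 59.4 CPM in untreated A549, and 170 ± 32.1 CPM in treated B2B, against 242 ± 11.9 CPM in untreated B2B. Its changes of 0.54 and -0.50 lay at the fold minimum, and its difference was not called without untreated A549 replicate 1 or treated B2B replicate 2. Its opposite directions were also lost without treated A549 replicate 2 or either untreated B2B library, in the fit to the 8 libraries alone, without a low-count filter, when scaled by library size alone, with the replicate block and with the GC offset (0.42 and -0.41).

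Lipid synthesis genes were lower in 13 of 32 cases, against 7.41% of all tested genes. In A549 6 rose and 5 fell, against 14.8% and 13%, while in B2B 19 rose, against 11.4%. HMGCS1, which makes HMG-CoA, stood at 313 ± 50.5 CPM in treated B2B, against 76.1 ± 2.14 CPM in untreated B2B, and at 287 ± 19.9 CPM in treated and 301 ± 18.9 CPM in untreated A549 (difference -2.11 ± 0.17), with 37.7% of its exon bases shared with a gene of the other strand. The fatty acid desaturase FADS2 differed by -1.81 ± 0.14. Stress response genes with opposite directions were ASNS, asparagine synthetase, and CHAC1, which breaks down glutathione. ASNS had 113 ± 5.21 CPM in treated A549, against 53.6 ± 0.618 CPM in untreated A549, and 18.6 ± 0.731 CPM in treated B2B, against 40.9 ± 1.63 CPM in untreated B2B, and CHAC1 differed by 4.46 ± 0.45, with its fall in B2B not called without treated B2B replicate 1 (-1.08). Of the exon bases of ASNS, 49.3% are shared with an unnamed gene of the same strand. As a list the 29 stress response genes had 7 higher and 1 lower, 12 higher without treated A549 replicate 1, and 3 or 4 higher without any single library other than the treated A549 ones and treated B2B replicate 1. NRF2 targets were lower in 8 of 29 cases and higher in 3, against 7.41% and 8.34% of all tested genes. With 1 library left out, 4 to 12 were lower and at most 7 higher, and without untreated B2B replicate 1 more were higher (7) than lower (4). Among the lower ones was the quinone reductase NQO1, which rose in B2B (1.31 ± 0.13) and stood at -0.35 ± 0.13 in A549. Exons on the other strand also cover 19.4% of the exon bases of NQO1, 38.9% of IER3, 23.6% of MCM2 and 18.3% of IGFBP7.

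Because SR11302 is a retinoid, retinoic acid responsive genes were examined. Of 23 tested, 3 were higher and 3 lower, against 8.34% and 7.41% of all tested genes. Their median difference was -0.09, against 0.003 over all tested genes, so as a list they leaned to neither side. The retinaldehyde dehydrogenase ALDH1A3 was the 1 member with opposite directions, which 1.56% of all tested genes had. It stood at 94.9 ± 6.73 CPM in treated A549, against 47.4 ± 3.35 CPM in untreated A549, and at 39.4 ± 4.06 CPM in treated B2B, against 73.9 ± 0.498 CPM in untreated B2B, with 32.1% of its exon bases shared with a transcript of the other strand. The transglutaminase TGM2 (1.57 ± 0.17), the receptor RARG (1.01 ± 0.12) and the retinal reductase DHRS3 (1.22 ± 0.15) rose in B2B and were not called in A549, with 0.03 ± 0.14, 0.08 ± 0.12 and 0.39 ± 0.12. The difference of DHRS3 was not called without treated B2B replicate 2 or untreated B2B replicate 1.

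Innate immune genes were split. Over all tested genes 14.8% rose and 13% fell in A549, and 11.4% rose in B2B. Of 39 interferon-stimulated genes 7 were higher and 4 lower (2 without untreated B2B replicate 1), and 24 rose and 4 fell in A549 while 18 rose in B2B. OAS3, a sensor of double-stranded RNA, was the member with opposite directions, at 104 ± 14.3 CPM in treated A549, against 189 ± 7.72 CPM in untreated A549, and 58.3 ± 1.48 CPM in treated B2B, against 37.1 ± 1.23 CPM in untreated B2B. TRIM22 rose in A549 (3.93 ± 0.35) with -0.14 ± 0.24 in B2B, a difference of 4.08 ± 0.44. Among 22 NF-kB and cytokine genes 7 were higher and 2 lower in the difference, against 8.34% and 7.41% of all tested genes. The NF-kB inhibitor TNFAIP3 moved in opposite directions, with 10.5 ± 0.836 CPM in treated A549, against 6.25 ± 0.202 CPM in untreated A549, and 3.20 ± 0.0659 CPM in treated B2B, against 7.94 ± 1.10 CPM in untreated B2B. The chemokine CCL2 rose in B2B (1.96 ± 0.19) and was not called in A549 (0.29 ± 0.17).

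Some of the remaining lists held 1 member with opposite directions. Of 33 hypoxia and glycolysis genes 7 were higher and 1 lower, and of 20 sestrins and FOXO targets 6 and 2. The 1 hypoxia gene lower became 3 without treated A549 replicate 1 and was not called without untreated A549 replicate 1 or any 1 of the 4 B2B libraries. Of the sestrins and FOXO targets more were lower (6) than higher (4) without treated A549 replicate 2, where their median difference was 0.25, against 0.89 with all libraries. Without treated A549 replicate 1 10 of them were higher, without untreated A549 replicate 1 3, and 1 was lower without either of these, treated B2B replicate 1 or either untreated B2B library. For 30 WNT and Notch genes the counts were 5 and 4, and for 32 lysosome and autophagy genes 3 and 6. The WNT and Notch genes had 9 higher with the GC offset and 2 lower without untreated A549 replicate 1, treated B2B replicate 2 or either untreated B2B library, and the lysosome and autophagy genes had 3 lower without replicate 1 of either untreated group. IGFBP6, a binding protein of insulin-like growth factors, fell in A549 (-0.70 ± 0.13) and rose in B2B (0.83 ± 0.14), though its A549 value was under the fold minimum with the GC offset (-0.44), while IGFBP7 rose in A549 (4.56 ± 0.15) and stood at -0.13 ± 0.10 in B2B. Prolyl hydroxylase P4HA2, needed for collagen, rose in A549 (0.61) and fell in B2B (-0.95). The Notch ligand JAG1 fell in B2B (-2.29 ± 0.12) with -0.11 ± 0.11 in A549, and the receptor ERBB3 rose in B2B (1.80 ± 0.12) with -0.32 ± 0.11 in A549. Of 11 oncogenes examined, 4 were lower and 1 higher, or 6 and 2 without treated A549 replicate 1 and 1 and 1 without replicate 2 of both untreated groups. SRC differed by -0.86 ± 0.16, KLF6 by -0.76 ± 0.16, CCND1 by -0.71 ± 0.15 and EGFR by 0.53 ± 0.16. The EGFR call was lost in the fit to the 8 libraries alone, and without untreated A549 replicate 1, treated B2B replicate 2 or either untreated B2B library (adjusted p = 0.0561 to 0.160). These oncogenes were chosen in the study partly on these samples, so their count is not independent evidence. Oxidative phosphorylation served as a contrast with 0 of 29 genes called by edgeR, 5 with an unadjusted p under 0.05 (all lower), 1 lower by DESeq2 and 10 lower without treated A549 replicate 1.

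Large differences were also found in genes called in 1 line alone. TLR4, the receptor of bacterial lipopolysaccharide, had 1.85 and 5.61 CPM in treated A549, against 0 and 0.0531 CPM in untreated A549, and 15.7 and 12.1 CPM in treated B2B, against 23.7 and 21.7 CPM in untreated B2B, where its -0.70 ± 0.28 was not called. In A549 this was 172 reads against 1, a ratio of 155 per read of depth with an exact 95% interval from 27.4 to 6150. The inflammasome sensor NLRP1 had 107 reads against 2 in A549 (ratio 48.1, interval 13.0 to 403) and FAM196B 163 against 2, and neither was called in B2B. These intervals cover counting error only. Among lower differences, the mucin-type glycosyltransferases GALNT13 and GALNT14 rose in B2B and were not called in A549. GALNT13 had 2.18 and 1.97 CPM in treated B2B, against 0.0958 and 0.244 CPM in untreated B2B, with 46.4 and 49.0 CPM in treated A549, against 39.3 and 45.7 CPM in untreated A549 (difference -3.35 ± 0.48).

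Zinc finger genes formed a further group, noticed after the values were seen. Of 475 tested genes with a ZNF symbol and number, 124 were higher and 16 lower in the difference, and 23 rose in A549 and fell in B2B. Over all tested genes these shares were 8.34%, 7.41% and 1.06%. On chromosome 19, where most KRAB zinc finger clusters lie, 83 of 225 were higher and 3 lower, with medians of 0.56 in A549 and -0.24 in B2B, and 17 had opposite directions. On the other chromosomes 41 of 249 were higher and 13 lower. The chromosome 19 count was between 56 and 107 when 1 library was left out and 53 without replicate 2 of both untreated groups. With an offset for GC content it was again 83, while the count over all tested genes was 1590 in place of 1366. The median difference of the chromosome 19 genes was then 0.66 in place of 0.847, and 14 in place of 17 had opposite directions.

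The 2 sets differed in base composition. The median GC content of the longest transcript was 45.0% for genes that rose in A549 and fell in B2B and 56.3% for the reverse, against 48.2% over all tested genes. Across 15786 genes with a value, GC content ran with the difference at a Spearman rho of -0.27, with -0.18 for the A549 effect and 0.13 for the B2B effect, given as a description since genes are not independent. With a GC offset fitted per library, 189 and 74 genes had opposite directions, and 149 of the 173 and 54 of the 82 were among them. In each of the 2 sets 2 genes had no GC value and were not in that fit.

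Without treatment, 137 of the 173 genes and 17 of the 82 were lower in A549 than in B2B. Since the untreated libraries also enter the fold changes that chose these genes, this is a description. Under SR11302 76 of the 173 were lower in A549 and 36 of the 82, so that the lines changed order in 61 and 19 genes. The median gap between the lines, in absolute log2 of CPM + 0.5, was 1.67 with SR11302 and 2.15 without treatment for the 173 genes, and 1.26 and 2.25 for the 82. Over all tested genes it was 0.62 and 0.64. The gap was smaller with SR11302 in 108 of the 173 genes, 54 of the 82 and 8607 of all 16373. In the SP600125 libraries, whose levels did not choose the genes, 99 of the 173 and 30 of the 82 were lower in A549, against 8034 of all 16373.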

How the data were processed

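RNA-seq was done on 12 libraries, 2 for each of 6 groups, with mRNA libraries made by the KAPA mRNA HyperPrep kit from DNase-treated total RNA. The deposited values are raw counts of reads per gene, made by the authors with STAR 2.7.10a and HTSeq 1.99.2 on hg38. Which annotation and strand setting were used is not given in the sources used here. Tally lines for unassigned reads were left out. Depth was 16782262 to 24917854 reads in genes for the 8 libraries compared, and the correlation of log2 CPM between replicates was 0.990 to 0.997.

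The 12 libraries were fitted together with edgeR 4.0.16 (quasi-likelihood F test, filterByExpr, TMM, 6 residual degrees of freedom, R 4.3.3). The contrast was (A549 SR11302 minus untreated) minus (B2B SR11302 minus untreated), with p-values adjusted by Benjamini-Hochberg over 16373 genes. Calls needed an adjusted p under 0.05 and an absolute log2 value of at least 0.5, in the difference and, for opposite directions, in both lines. SE is the absolute log2 value divided by the square root of F. The script was tested on simulated data. Of 26485 listed symbols 24561 were matched to GENCODE v44, 1400 of them by another symbol of the gene. Promoters came from RefSeq (GRCh38.p14). No columns of other samples were present.

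Genes named were the 10 largest opposite differences in each direction within the level limits given, the 7 AP-1 subunits, up to 4 called members of each of 34 lists and the 5 largest differences each way. Of these the members of some lists and some of the largest differences are not printed. SNAI2, ACTA2, INHBA, NR4A3, CHAC1, GDF15, MDM2, ZNF585A, 5 matrix genes and the genes at the edge of the set were named after their values were seen. Members and lists were chosen with earlier results of these data known. Alternatives were DESeq2 1.42.0, other scalings, filters and fold minimums, the 8 libraries alone, a replicate block, a GC offset and each library left out.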

Additional observations from a re-analysis of the deposited data

Results flagged for a closer look

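Every gene given here was noted because its SR11302 effect differed between the lines by a test of the difference itself (edgeR, adjusted p under 0.05), and each value is the log2 change in A549 minus that in B2B. Groups of 2 libraries are too small for a check of outlying libraries.

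Among genes that rose in A549 and fell in B2B, the differences were FGF5 (5.67), POSTN (5.17), SNAI2 (4.65), CHAC1 (4.46), ITGA11 (4.11), INHBA (3.92), CCBE1 (3.80), ARRDC4 (3.74), ADAMTS1 (3.71), ZNF585B (3.66), C3 (3.61), STC1 (3.58), HMGA2 (3.57), COL4A1 (2.88), ANKRD1 (2.88), COL6A2 (2.78), COL5A1 (2.73), RBMS3 (2.71), FN1 (2.47), ITGB3 (2.31), ASNS (2.21), TGFB2 (2.05), TNFAIP3 (2.05), LTBP2 (2.04), ACTA2 (2.02), COL6A1 (1.98), ALDH1A3 (1.91), COL4A2 (1.74), MDM2 (1.74), P4HA2 (1.56), CREB3L2 (1.44), GDF15 (1.38), FRG1HP (1.34) and CDK6 (1.05). The lowest of these lay at the edge of the set. Those that fell in A549 and rose in B2B had DMKN (-4.12), NR4A1 (-3.46), LHPP (-2.90), C1QL4 (-2.66), SH3PXD2A (-2.66), GLDC (-2.64), FAM167A (-2.61), PLEKHA6 (-2.43), FAXDC2 (-2.35), ZFP36 (-2.34), NR4A3 (-1.75), ITGB4 (-1.66), IGFBP6 (-1.53), OAS3 (-1.51), PKP3 (-1.36), WDR34 (-1.29) and JUND (-1.28).

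Genes called in A549 alone had TLR4 (7.52), FAM196B (5.99), NLRP1 (5.52), IGFBP7 (4.69), SDC2 (4.60), ZNF585A (4.56), TRIM22 (4.08), CDH2 (2.93), SPATA18 (2.86), FOS (-2.80), EGR1 (-2.62), TP53INP1 (2.40), CDKN1A (1.94), SESN1 (1.89), MAFF (-1.77), DUSP8 (-1.61), AREG (-1.42), JUNB (-1.32), FOSL1 (-1.26), IER3 (-1.20), MCM5 (-1.05), MCM2 (-1.03), SRC (-0.86) and EGFR (0.53). Genes called in B2B alone had GALNT13 (-3.35), GALNT14 (-3.23), JAG1 (2.19), ERBB3 (-2.12), HMGCS1 (-2.11), FADS2 (-1.81), CCL2 (-1.67), NQO1 (-1.66), TGM2 (-1.54), ETV4 (-1.28), RASA1 (1.14), ABTB1 (-1.05), RARG (-0.93) and DHRS3 (-0.83). A call in 1 line alone does not show that the other line did not respond. Genes that moved in the same direction in both lines had FOSB (-3.66), MMP2 (3.49), KLF2 (-2.73) and KLF6 (-0.76), and CCND1 was called in neither line by itself and had a difference of -0.71.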

How the results depend on the processing

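No gene of the 255 was called with both directions swapped under any alternative, which does not show that all signs were kept. Among the genes named, JUN alone changed sign, to 0.0304 with the GC offset and 0.0303 with the replicate block and GC offset, and it was not called in any fit. In the fit to the 8 libraries alone, 732 genes were lower in A549 in place of 1213. With a log2 fold minimum of 1, 884 genes were higher and 538 lower, 54 and 17 had opposite directions, and 2276 were changed in A549 and 1746 in B2B. Without a fold minimum 180 genes fell in A549 and rose in B2B, in place of 82. When 1 library was left out, genes higher ranged from 744 to 2432, genes lower from 587 to 2336, genes with opposite directions from 103 to 263 (up in A549) and from 36 to 119 (down in A549), genes changed in A549 from 3142 to 5609 and in B2B from 2406 to 4086. Without replicate 2 of both untreated groups the counts were 747 higher, 548 lower, 92 and 38 with opposite directions, and 2072 changed in B2B. Each fit with fewer libraries had fewer residual degrees of freedom, and why single libraries moved the counts up or down was not tested. DESeq2 gave 164 and 60 genes with opposite directions, of which 155 and 60 were among the 173 and 82, and gave no adjusted p for the difference in 1 and 4 of these. Scaled by library size alone, GDF15 (-0.49) and ITGB3 (-0.46) were not called in B2B.

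The main fit did not pair libraries by replicate number. Deviations of same-numbered libraries correlated at -0.407 to 0.366 between groups. Between treated and untreated cells the value was 0.366 in A549 and 0.12 in B2B. These values do not settle whether the numbers mark a pairing or a batch. With the replicate block 160 and 72 genes had opposite directions, 159 and 69 of them among the 173 and 82, and it changed no call of the difference of a gene named, though CDK6 and NR4A3 were then not called in B2B nor WDR34 in A549, and ABTB1 gained opposite directions. Genes at under 2 CPM in 1 line, such as SNAI2, have fold changes that depth limits.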
